A study of Mus musculus with 13 samples.

Results

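The uninjured, contralateral sciatic nerves of mice that lack Raptor in Schwann cells (SCs) were compared with those of controls, and all genes with at least 50 counts in at least 2 of the 7 contralateral libraries were taken. These were 11878 of the 40787 genes in the table, and 7 of the 13 libraries of the study. RaptorKOs carried floxed Rptor alleles and a transgene for a tamoxifen-inducible Cre that is active in SCs. Controls had the floxed alleles but no Cre. All mice, on a C57BL/6 background, received tamoxifen at about 2 months of age, and the sciatic nerve of one side was crushed 2 months later. Both nerves were collected at 5 days post crush (dpc), so a contralateral nerve was itself never crushed but came from an injured animal. There were 3 control libraries and 4 RaptorKO libraries, with 1 library per nerve. RNA was extracted from the whole nerve after the epineurium had been removed, which leaves fibroblasts, macrophages, vessel cells and the RNA of axons beside the SCs. In such bulk samples, fewer cells of a type and less RNA per cell cannot be told apart.

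Raptor is the subunit of mTORC1 (mechanistic target of rapamycin complex 1) that binds its substrates. In growing cells mTORC1 promotes protein synthesis, in part through messenger RNAs that start with a terminal oligopyrimidine (TOP) tract, which include those of ribosomal proteins and elongation factors. It also promotes the synthesis of sterols and fatty acids through SREBP transcription factors, and it restrains autophagy and lysosome formation. Myelinating SCs draw heavily on lipid synthesis, and mTORC1 activity falls in SCs once they begin to make myelin.

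Libraries held 8200458 to 13581775 counts. Control 3 stood apart in sex-linked genes, with 15017 counts of Xist against 4 to 17 in the other 6 libraries. It had 10 counts of 4 Y-linked genes against 1456 to 2338, and the mice were of either sex. Control 3 thus had the pattern of a female and the other 6 libraries that of males. Sex was therefore not balanced between the genotypes, and it was not included in the test. Values are given as counts per 1000000 after scaling for library composition (CPM), and levels of different genes are not compared, since CPM is not corrected for gene length. Groups were compared with the quasi-likelihood test of edgeR, and genes whose p, adjusted by Benjamini-Hochberg, was under 0.05 and that differed by more than 1.2-fold were called. The log2 ratio is RaptorKO over control throughout. Nothing in the labels says which cultures, litters or days the nerves share, so a p measures the spread between these libraries.

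In the RaptorKO nerves 675 genes (5.68% of those tested) were lower and 533 (4.49%) were higher. The libraries of the 2 groups did not overlap for 1471 genes that were lower (12.4%) and for 1316 that were higher (11.1%). Most calls were of modest size. Of the 1208 called genes, 601 differed by less than 1.5-fold, and 79 lower and 69 higher genes differed by more than 2-fold. The median log2 ratio of all tested genes was 0.01. Many calls were lost when any one control library was left out, which leaves 2 controls. Without control 1, 2 or 3 the numbers were 333, 278 and 370 lower and 263, 246 and 299 higher, and without RaptorKO 1 there were 410 lower genes. Of the 273 called genes in the lists described here, 165 were called without any one library and 108 lost their call without at least 1, and these are pointed out where they are named.

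**Figure D1:**
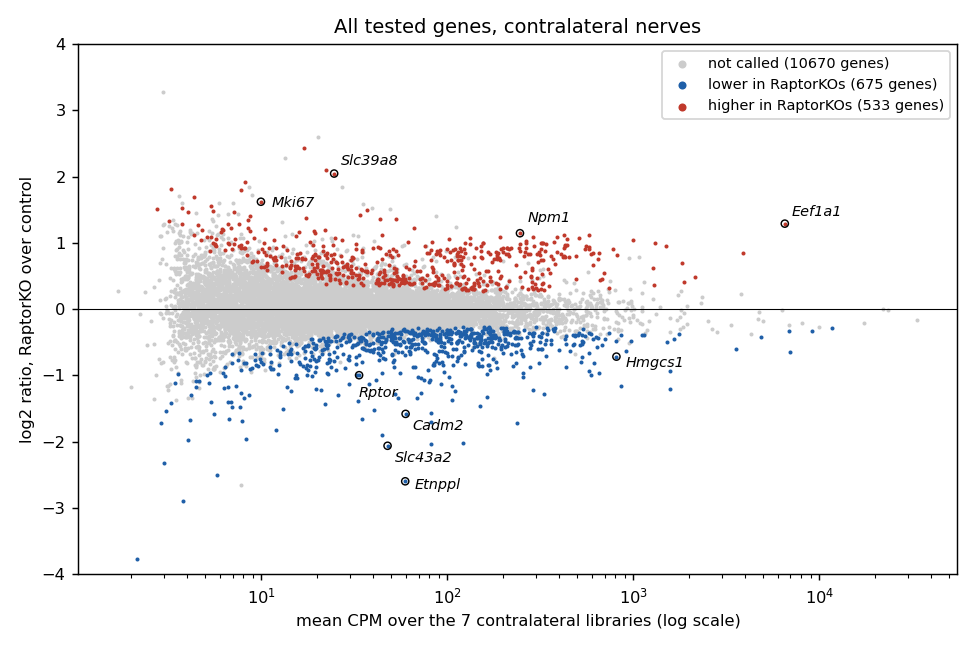
Log2 ratio of RaptorKO over control contralateral nerves against the mean CPM over the 7 libraries (log axis) for the 11878 tested genes. Blue points are the 675 genes called lower, red points the 533 called higher and grey points the genes not called; 9 genes described in the text are circled. Most called genes lie within 1 log2 unit of 0, and the called genes at high expression include Eef1a1 above and Hmgcs1 below the line.

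Rptor (ENSMUSG00000025583; GRCm38, chromosome 11, 119602905 to 119899576, plus strand) checks the labels. It had 49.5, 49.9 and 41.5 CPM in controls 1 to 3 and 23.3, 21.4, 26.8 and 22.6 CPM in RaptorKOs 1 to 4. The groups did not overlap, and the highest RaptorKO library was RaptorKO 3. The log2 ratio was -0.998 with a standard error (SE) of 0.12 (adjusted p = 5.00e-04, edgeR), and a two-sided exact permutation test over the 7 libraries gave p = 0.0286, the smallest p that this design allows. The counts cover the whole gene and not the floxed part alone, and they include the other cells of the nerve.

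The other subunits and regulators of mTORC1 formed a list of 42 genes, of which 41 were tested. Of these, 5 were lower (12.2%, against 5.68% of all genes) and 1 was higher (2.44%, against 4.49%), with a median log2 ratio of -0.08. Mtor, the kinase, had a log2 ratio of 0.10 (adjusted p = 0.59, edgeR), Mlst8, the third core subunit, -0.36 (adjusted p = 0.11), and Rictor, which takes the place of Raptor in mTORC2, 0.07 (adjusted p = 0.74). The genes that fell beside Rptor encode proteins that restrain mTORC1. Sesn3, a sestrin, had 119, 139.8 and 136 CPM in controls against 72.1, 57.9, 66.4 and 76.7 CPM in RaptorKOs, a log2 ratio of -0.95 (SE 0.11, adjusted p = 3.40e-04, edgeR). No RaptorKO library reached the lowest control. Sesn1, the leucine-binding relative of Sesn3, fell as well (-0.65), as did Castor2, which is related to the arginine sensor Castor1 (-0.78), and Deptor, an inhibitory partner of the kinase (-0.65, from 191 ± 6.25 to 121 ± 22.6 CPM, SD, n = 3 and 4). Castor1 (-0.16, adjusted p = 0.71) and Sesn2 (0.20, adjusted p = 0.85) were not called. Flcn, folliculin, which acts on the Rag GTPases, was higher (0.47, from 27.5 ± 1.31 to 38.3 ± 2.56 CPM). The number of lower genes was 5 when any one library was left out, whereas Flcn lost its call without control 1 or control 2 (adjusted p = 0.073 and 0.085).

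Genes of the translation machinery were higher. Of 82 genes for cytosolic ribosomal proteins, 76 were called higher and 0 lower, against 4.49% of all genes called higher, and their median log2 ratio was 0.85. The called members lay between 0.51 and 1.36. Rpl4, a protein of the large subunit, had 627, 591 and 631 CPM in controls against 1269.8, 1311, 1224 and 1287 CPM in RaptorKOs. Rps6, the small-subunit protein that S6 kinases phosphorylate downstream of mTORC1, had 373, 347 and 378 CPM in controls against 705, 730.2, 706 and 678 CPM in RaptorKOs. In both genes every RaptorKO library was far above every control and the replicates lay close together. Log2 ratios were 1.05 for Rpl4 (SE 0.07, adjusted p = 6.07e-05) and 0.95 for Rps6 (SE 0.07, adjusted p = 6.29e-05, both edgeR). The members that were not called were Rpl22l1, Rps12, Rpl12, Fau, Rps27l and Rpl27, of which Rps27l (0.06) and Rpl27 (-0.02) had the smallest ratios. Genes of ribosomal proteins have many processed copies in the genome, among which RSEM shares out reads. Rpl10-ps3, a copy of Rpl10, was higher together with Rpl10 (log2 ratios 1.12 and 1.36), and reads of one could be assigned to the other. Rpl10 itself lost its call without control 1, control 2, RaptorKO 1 or RaptorKO 2 (adjusted p 0.063 to 0.14). Rps28 (1.09) overlaps Kank3 on the other strand.

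The list of other TOP genes, mainly translation factors, had 22 tested members, of which 18 were higher and 0 lower, with a median of 0.59. Eef1a1, which brings aminoacyl-tRNA to the ribosome, had 3497, 3669 and 3563 CPM in controls against 8134, 8329, 8371 and 10115 CPM in RaptorKOs. RaptorKO 4 was the highest, and the groups were far apart. Its log2 ratio was 1.29 (SE 0.10, adjusted p = 6.21e-05, edgeR). Eef2, the translocase of elongation, rose by 0.96, Tpt1 by 1.0, Eef1b2 by 0.91 and Pabpc1, the poly(A)-binding protein, by 0.78. Several subunits of initiation factor eIF3 rose, among them Eif3h (0.86), Eif3m (0.88), Eif3e (0.84) and Eif3f (0.68). Eif3a (0.20, adjusted p = 0.12) and Eif3d (0.04, adjusted p = 0.84) were not called. Rack1, a scaffold protein of the small subunit that overlaps Trim41 on the other strand, rose by 0.93. The number of higher genes was 70 to 76 for the ribosomal proteins and 15 to 18 for this list when any one library was left out.

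The wider translation apparatus took part less evenly. Of 14 genes for cap-dependent initiation, 2 were higher (14.3%, against 4.49% of all genes). Eif4b, the cofactor of the helicase eIF4A, had 238, 231 and 244 CPM in controls against 447, 443, 497 and 534 CPM in RaptorKOs. The lowest RaptorKO library was well above the highest control, with a log2 ratio of 1.01 (SE 0.09, adjusted p = 8.75e-05, edgeR). Eif4ebp1, the translational repressor that mTORC1 inactivates, had a log2 ratio of 0.61 (adjusted p = 0.045), and this call was lost without any one library except RaptorKO 4 (adjusted p 0.064 to 0.17). Eif4e, Eif4g1, Rps6kb1 and Larp1 were not called, with log2 ratios of -0.13 to 0.23. Of 75 factors that assemble ribosomes in the nucleolus, 13 were higher and 0 lower, with a median of 0.16. Npm1, nucleophosmin, had 145, 144 and 147 CPM in controls against 316, 329, 316 and 323 CPM in RaptorKOs, and the replicates of each group lay close together (log2 ratio 1.14, SE 0.07, adjusted p = 5.35e-05, edgeR). Ncl, nucleolin (0.60), Polr1a, the largest subunit of RNA polymerase I (0.56), and Noc2l (0.57) followed. The count of assembly factors fell when most single libraries were left out. It was 5 without any one control and 8, 6 and 7 without RaptorKO 1, 2 and 3. Mitochondrial ribosomal proteins, which are not TOP genes, had 1 of 78 members called (Mrpl30, 0.69) and a median of 0.06. Of 20 cytosolic aminoacyl-tRNA synthetases, 2 were lower (Wars, -0.50, and Dars, -0.31) and Kars was higher (0.40). These were 10% and 5% of the list, against 5.68% and 4.49% of all genes. Dars lost its call without any one library except RaptorKO 4 (adjusted p 0.067 to 0.17) and in the exact test of edgeR (adjusted p = 0.060). Proteasome subunits had 0 of 40 members called in edgeR and 0 in DESeq2, with 2 at an unadjusted p below 0.05 and a median of 0.05.

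Promoter sequences from RefSeq (GRCm38.p6, 250 bases before to 50 after each annotated start) were at hand for 9212 of the tested genes. A TOP tract was searched as a C at the annotated start followed by at least 4 bases that are all C or T, on the coding strand. It was present for 14 of 61 ribosomal protein genes with a promoter (23%) and for 4 of 17 other TOP genes (23.5%), against 3.08% of all tested genes, 7.29% of the genes called higher and 2.91% of those called lower. Among the genes called higher outside the translation lists the share was 3.61%. Annotated starts can lie some bases off the start in use. A looser search for a run of 7 pyrimidines beginning with C within 20 bases of the start found 57.4% and 52.9% in the lists, 23.5% in all tested genes and 24.6% in the genes called higher outside the lists. These matches describe the letters and do not show which start is used. The following stretches, 10 bases before to 20 bases from the annotated start, are shown because these genes all rose and begin with such a tract, which is given in capitals.
Rps6 (chr4:86857348-86857377, minus strand): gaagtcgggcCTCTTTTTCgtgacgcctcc
Rps10 (chr17:27635225-27635254, minus strand): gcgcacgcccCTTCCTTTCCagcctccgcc
Rpl28 (chr7:4792955-4792984, plus strand): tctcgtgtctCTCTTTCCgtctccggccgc
Rpl35 (chr2:39005112-39005141, minus strand): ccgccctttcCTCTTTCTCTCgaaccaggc
Rack1 (chr11:48800350-48800379, plus strand): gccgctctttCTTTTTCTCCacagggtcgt
Eif3f (chr7:108934405-108934434, plus strand): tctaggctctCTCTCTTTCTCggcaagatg

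**Figure D2:**
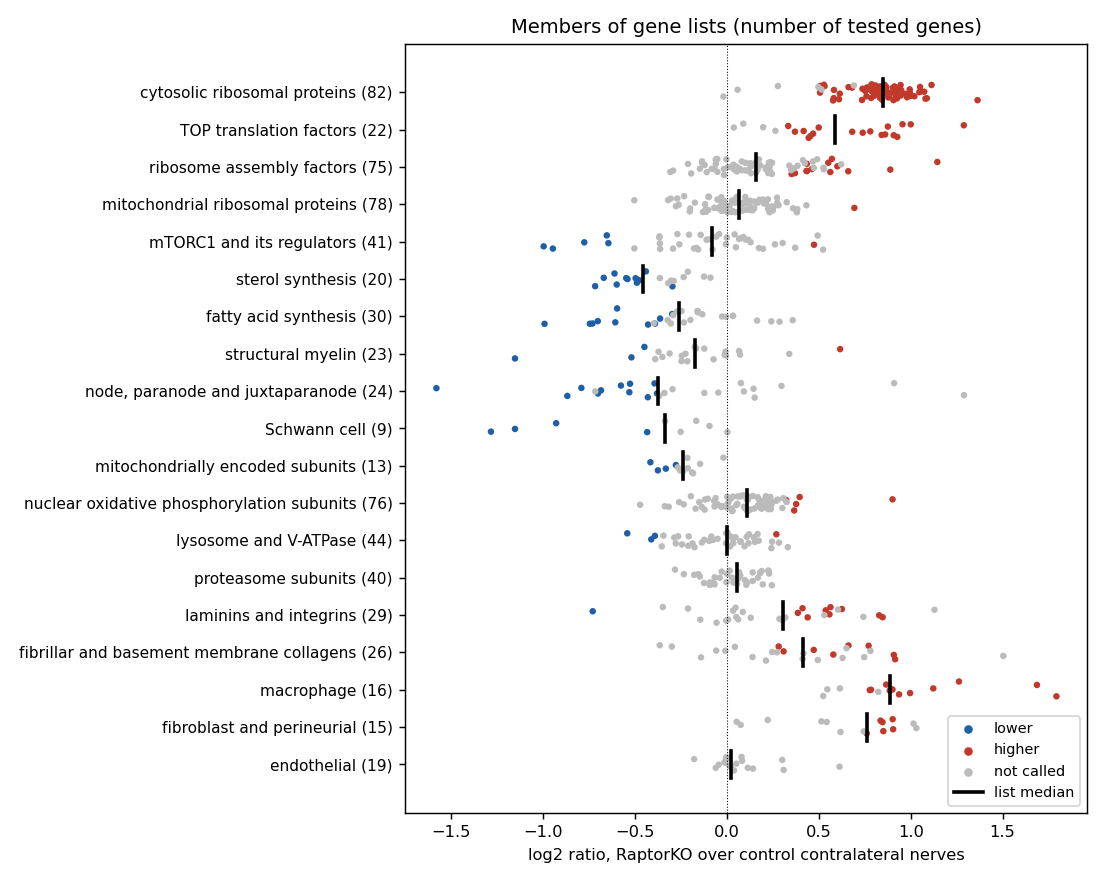
Log2 ratio of RaptorKO over control for each tested member of 19 gene lists, with the number of tested members in parentheses. Each point is a gene (blue lower, red higher, grey not called) and the black bar is the list median; points are spread vertically for legibility. The ribosomal protein genes centre on 0.85 and the sterol synthesis genes on -0.46, whereas proteasome, lysosome and endothelial genes centre near 0.

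Genes of lipid synthesis were lower. Of 20 genes of sterol synthesis, 12 were called lower (5.68% of all genes were), 0 were called higher, and all 20 had a log2 ratio below 0, with a median of -0.46. Hmgcs1, which makes the HMG-CoA that enters the pathway, had 938, 1083 and 1115 CPM in controls against 682, 612, 611 and 637 CPM in RaptorKOs. The groups were well separated, with a log2 ratio of -0.72 (SE 0.08, adjusted p = 5.01e-04, edgeR). Enzymes of later steps fell with it, such as Idi1 and Fdps in the isoprenoid part (-0.44 and -0.49), Sqle and Lss around the ring closure (-0.30 and -0.49), and Msmo1, Nsdhl, Hsd17b7 and Sc5d in the late steps (-0.50 to -0.61). Idi1, Lss, Sc5d and Sqle lost their calls without control 2 or control 3 (adjusted p 0.057 to 0.17), Sc5d also without RaptorKO 1 and Sqle without any library except RaptorKO 3. Cyp51, Dhcr7 and Fdft1 were not called (-0.24 to -0.37). The genes that control the pathway were mostly not called. Srebf2 had a log2 ratio of -0.02 (adjusted p = 0.91), Srebf1 -0.31 (adjusted p = 0.21) and Insig1 -0.13. Of the 21 genes for sterol sensing, uptake and efflux, 3 were lower, namely the exporter Abcg1 (-0.68), Npc1, which moves cholesterol out of lysosomes and overlaps Rmc1 on the other strand (-0.58), and Mylip, which degrades lipoprotein receptors (-0.53). Vldlr, one of those receptors, was higher (0.61). The lower and higher genes were 14.3% and 4.76% of the list, against 5.68% and 4.49% of all genes. Without control 1, Npc1, Mylip and Vldlr lost their calls (adjusted p = 0.052, 0.071 and 0.075), and 1 of the 3 lower genes remained.

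Of 30 genes of fatty acid synthesis, 10 were lower and 0 higher, with a median of -0.26. Slc25a1, which exports citrate from mitochondria as the carbon source of lipids, had 242, 239 and 210.2 CPM in controls against 121, 152, 126 and 150.0 CPM in RaptorKOs, a log2 ratio of -0.75 (SE 0.10, adjusted p = 0.0012, edgeR). All 4 RaptorKO libraries were below the lowest control. Acss2, which makes acetyl-CoA from acetate and overlaps Ggt7 and Gss on the other strand, fell by 0.73, the desaturase Fads2 by 0.70 and the elongase Elovl6 by 0.61. Scd2, the main stearoyl-CoA desaturase of myelin, fell from 4403 ± 108 to 2908 ± 350.1 CPM (-0.60). Fasn (-0.23, adjusted p = 0.34), Acaca (-0.31, adjusted p = 0.072) and Scd1 (0.24, adjusted p = 0.82) were not called. The count was 5 without control 1 and 6 without control 2. Of 22 genes in a list around phospholipid and plasmalogen synthesis, 5 were lower and 0 higher. The lower ones include Etnppl and the phosphatase Phospho1 (-0.87), which are not enzymes of synthesis. Chpt1, which completes phosphatidylcholine, had 149, 172 and 175 CPM in controls against 98.8, 86.5, 97.3 and 91.6 CPM in RaptorKOs (-0.82, SE 0.08, adjusted p = 2.07e-04, edgeR). Etnppl, which breaks down phosphoethanolamine, fell further, from 114, 127 and 98.3 CPM to 14.2, 19.4, 9.74 and 32.2 CPM (-2.60). The RaptorKO libraries differed among themselves by more than the controls did in this gene, with RaptorKO 4 highest, yet none came near a control. Without control 2, control 3 or RaptorKO 3 there were 3 lower genes in this list. Sphingolipid synthesis had 1 of 17 genes called (5.88%, against 5.68% of all genes lower), the ceramide synthase Cers2 (-0.50), which overlaps Setdb1 on the other strand.

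Promoters were at hand for 15 of the 20 sterol synthesis genes. The CCAAT box, counted as CCAAT on either strand, occurred in 14 of them (93.3%), against 42.4% of all tested genes, 47.6% of the genes called lower and 33.1% of those called higher. The share in the fatty acid list was 65.4%. TCACNCCAC, the core letters of the sterol response element, was found in 1 of the 15 (6.67%) and in 1.36% of all tested genes on either strand. The letters searched are stricter than what SREBP binds, and a promoter without them may bind it elsewhere. The stretches below are shown because both motifs were found in the window of Hmgcs1, and because the genes of the other lines fell with it. Capitals mark the match, given on the strand of the gene, so that ATTGG is a CCAAT box on the other strand. The first begins at position -137 and the others at -45, -55, -45 and -62 from the annotated start.
Hmgcs1, sterol response element letters (chr13:119690204-119690232, plus strand): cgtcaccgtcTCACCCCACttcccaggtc
Hmgcs1, CCAAT box (chr13:119690294-119690323, plus strand): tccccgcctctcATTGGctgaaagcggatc
Msmo1, CCAAT box (chr8:64733616-64733645, minus strand): gagtggggcggaCCAATtacgacaggcgag
Idi1, CCAAT box (chr13:8885549-8885578, plus strand): tgcctccagctgATTGGcgagcccgggcat
Lss, CCAAT box (chr10:76531531-76531560, plus strand): ggtgatgctctgATTGGccgagctcgcatc

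SC genes were lower in part. Of 9 tested markers of SCs, 4 were lower and 0 higher, with a median of -0.34. The summed level of the SC markers overlapped between the groups, at 37680 to 42260 CPM in controls and 30830 to 39500 CPM in RaptorKOs. Cdh19, a cadherin of the SC lineage, had 457, 517 and 515 CPM in controls against 219, 197, 167 and 232 CPM in RaptorKOs (-1.29, SE 0.11, adjusted p = 8.75e-05, edgeR). S100b, a calcium-binding protein of SCs, had 754, 831 and 789 CPM in controls against 430.5, 444, 351 and 436 CPM in RaptorKOs (-0.93, SE 0.09, adjusted p = 1.91e-04, edgeR). Every RaptorKO library was below every control in both, with RaptorKO 3 lowest. Erbb3, the receptor of axonal neuregulin, fell by 0.43, and this call was lost without any one control or without RaptorKO 1 (adjusted p 0.067 to 0.10). Other markers were not called. Sox10, the lineage transcription factor, had a log2 ratio of -0.25 (adjusted p = 0.13), and Dhh, the hedgehog ligand of SCs, one of 0.00 (adjusted p = 0.99).

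Of 23 genes for structural myelin proteins, 3 were lower (13%, against 5.68% of all genes) and 1 was higher (4.35%, against 4.49%). Their median was -0.18. The lower ones included Ncmap (-0.52) and Cryab, which overlaps Hspb2 on the other strand (-0.45), and Pmp2, the fatty acid carrier of myelin, was higher (0.62, from 982 ± 89.8 to 1504 ± 229.6 CPM). The calls of Ncmap, Cryab and Pmp2 were lost without control 2 (adjusted p = 0.11, 0.082 and 0.064) and without some of the other libraries, that of Ncmap also when all 13 libraries were fitted together (adjusted p = 0.28), and the number of lower genes was 1 without control 1, control 2 or RaptorKO 1 and 6 without RaptorKO 2 or RaptorKO 4. Mbp (-0.01), Prx (-0.01), Mag (-0.07) and Pmp22 (-0.22) were not called. Of 24 transcription factors and cofactors of the lineage, 2 were lower (Pou3f2, -0.84, and Yap1, -0.30) and 2 higher. The higher ones were Nab2 (0.47), which overlaps Stat6 and Nemp1 on the other strand, and Hdac1 (0.38). Each share was 8.33%, against 5.68% of all genes lower and 4.49% higher. Each of the 4 calls was lost without control 1 and without control 2 (adjusted p 0.072 to 0.17), and all but that of Nab2 were lost without several other libraries too. Egr2, which drives myelination, was not called (-0.36, adjusted p = 0.073).

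Genes of the node of Ranvier and the regions beside it, where axon and SC adhere, were lower in many cases. Of 24 tested, 11 were lower and 0 higher, with a median of -0.38. The log2 ratio was below 0 in 17 and above 0 in 7, up to 1.29, and DESeq2 called 12 lower and 2 higher. The list also holds genes that are not confined to the node, such as Cadm2, Scn7a and Lgi4. Cadm2, an adhesion molecule of the internode, had 95.5, 99.3 and 94.0 CPM in controls against 35.0, 32.1, 26.2 and 35.5 CPM in RaptorKOs, a log2 ratio of -1.58 (SE 0.11, adjusted p = 6.07e-05, edgeR). The groups were far apart, and the RaptorKOs lay at about the same level. Scn7a, a sodium-sensing channel of non-myelinating SCs, fell from 583 ± 28.3 to 319 ± 52.8 CPM (-0.87). Lgi4, a secreted SC protein that is needed for myelination and overlaps Fxyd3 on the other strand, fell by 0.70, and Adam22, its receptor on the axonal side, by 0.69. The ankyrins Ank3 (-0.53) and Ank2 (-0.43), Cadm1 (-0.58), Cadm3 (-0.39), Cntn1 (-0.79), Adam23 (-0.38) and the potassium channel Kcna2 (-0.53) completed the group. Of these, Ank2 lost its call without control 2 (adjusted p = 0.076), and Cadm1, Cadm3, Cntn1, Adam23 and Kcna2 without control 1, without control 2 and without at least 1 RaptorKO (adjusted p 0.052 to 0.12). Kcna1, Cntnap1 and Gldn were not called, with log2 ratios of -0.30 to 0.14. The number of lower genes was 6, 5 and 7 without control 1, 2 and 3 and 7 without RaptorKO 1.

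Genes of immature and repair SCs did not move together. Of 30 in the list, 19 passed the count filter, and 5 were lower and 1 was higher, with a median of 0.01. These were 26.3% and 5.26% of the tested members, against 5.68% and 4.49% of all genes. Cdh2, N-cadherin, had 166, 165 and 156 CPM in controls against 60.1, 61.3, 51.6 and 78.8 CPM in RaptorKOs (-1.37, SE 0.12, adjusted p = 1.10e-04, edgeR). Cntf, a survival factor for motor neurons made by myelinating SCs and neighbour of Zfp91 on the same strand, fell by 0.97. Its values were 916, 979.5 and 834 CPM in controls against 464, 542, 344 and 510.3 CPM in RaptorKOs, without overlap. Ngfr, the low-affinity neurotrophin receptor of immature and non-myelinating SCs, went the other way. It had 34.0, 38.2 and 41.4 CPM in controls against 71.6, 61.1, 64.5 and 68.1 CPM in RaptorKOs, a log2 ratio of 0.81 (SE 0.10, adjusted p = 6.81e-04, edgeR). Atf3 (-1.17) and Gfap (-1.12) were lower at levels near 10 CPM or less in controls, and Atf3 lost its call without control 1 or control 3 (adjusted p = 0.051 and 0.061) and Gfap without any one library except RaptorKO 3 and 4 (adjusted p 0.058 to 0.13). Jun, the driver of the repair state, had a log2 ratio of 0.04 (adjusted p = 0.90). The number of lower genes was 2, 3 and 2 without control 1, 2 and 3 and 3 without RaptorKO 1.

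**Figure D3:**
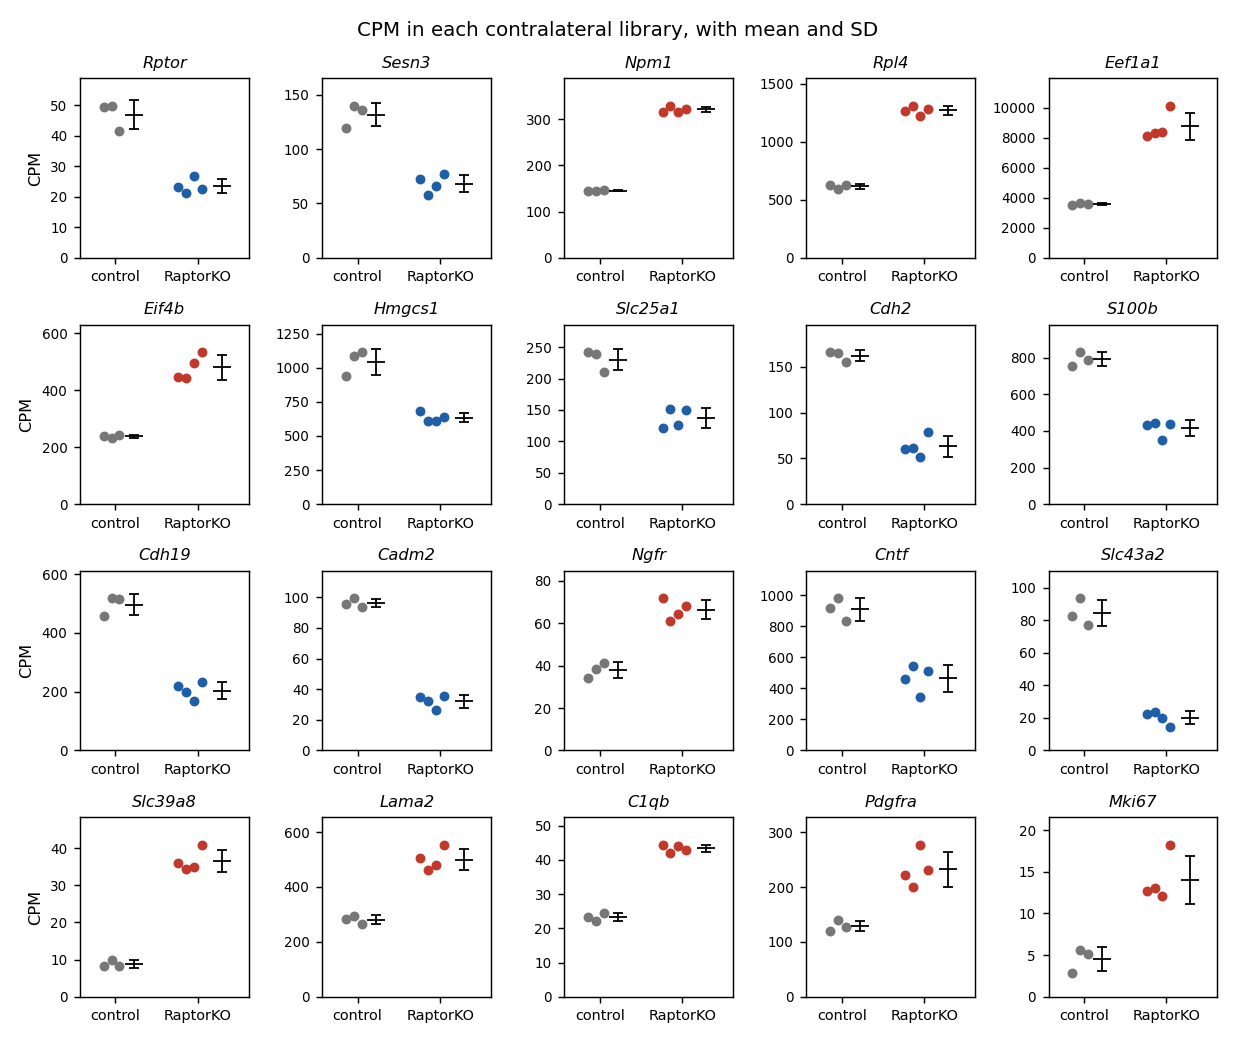
CPM of 20 genes in each contralateral library, with controls in grey and RaptorKOs in blue (lower) or red (higher). The bar beside each group is its mean with the SD (n = 3 controls, n = 4 RaptorKOs), and each vertical axis starts at 0. In all 20 genes the RaptorKO libraries lie on one side of all 3 controls.

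The genes with the smallest p outside these groups were single genes of varied function. Adamts5, a secreted protease that cuts proteoglycans, had 153, 166 and 176 CPM in controls against 73.4, 69.7, 64.0 and 72.3 CPM in RaptorKOs (-1.24, SE 0.08, adjusted p = 6.07e-05, edgeR). Lrrn3, a leucine-rich repeat membrane protein, fell by 1.35, the tubulin Tubb4a by 1.28 and the proprotein convertase Pcsk6 by 1.27. In each of these 4 genes both groups were tight and did not overlap. Serpind1, the thrombin inhibitor heparin cofactor II, fell from 213 ± 12.6 to 52.5 ± 12 CPM (-2.02). Dkk3, a secreted protein of the dickkopf family, fell by 1.57 and Fbln5, a fibulin of elastic fibres, by 0.98. Of the genes with the largest ratios at low levels, Ugt1a6b (-2.90) shares exons with Ugt1a6a, between which reads could be split, and was lost without any one control (adjusted p 0.059 to 0.070), and Faim2 (-2.32) was lost without control 1 (adjusted p = 0.087). Sap30bpos had 9.68 to 13.3 CPM in controls and 0.875 to 3.46 CPM in RaptorKOs (-2.50).

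Other single genes were carriers of amino acids and metals. Slc43a2, a carrier of branched-chain and aromatic amino acids, had 82.9, 93.4 and 77.3 CPM in controls against 22.7, 23.6, 19.7 and 14.5 CPM in RaptorKOs, a log2 ratio of -2.06 (SE 0.15, adjusted p = 6.07e-05, edgeR). Slc6a15, a sodium-coupled carrier of neutral amino acids, went up, from 34.4, 37.6 and 41.5 CPM to 83.9, 88.5, 90.3 and 89.8 CPM (1.22, SE 0.09, adjusted p = 6.16e-05, edgeR). Slc7a5, the light chain of the leucine carrier LAT1, was lower (-0.53), but its call was lost without control 1, control 2 or RaptorKO 1 (adjusted p 0.066 to 0.10). Slc39a8, a carrier of zinc and manganese, had 8.2, 9.91 and 8.33 CPM in controls against 36, 34.3, 34.8 and 40.9 CPM in RaptorKOs. All 4 RaptorKO libraries were several times above every control, with a log2 ratio of 2.04 (SE 0.13, adjusted p = 5.35e-05, edgeR). Of the 20 zinc transporters and metallothioneins tested, it was the only one called higher (5%, against 4.49% of all genes), and 2 were lower (10%, against 5.68%), namely Slc39a13, which overlaps Psmc3 on the other strand (-0.39), and Slc30a9 (-0.36). Both were lost without control 1 or control 2 (adjusted p 0.064 to 0.13), Slc30a9 also without control 3, RaptorKO 1 or RaptorKO 3.

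Energy metabolism changed in few genes. Of the 13 protein-coding genes of the mitochondrial genome, 4 were lower and 0 higher, and all 13 had a log2 ratio below 0 (median -0.24). mt-Nd2, a subunit of complex I, fell by 0.42 from 5675 ± 107 to 4249.8 ± 264 CPM. mt-Nd4l, mt-Nd4, which overlaps it, and mt-Cytb were also lower (-0.28 to -0.38). Each of these calls was lost without some library, while the log2 ratio stayed at -0.44 to -0.39 for mt-Nd2 and at -0.38 to -0.28 for mt-Nd4. There were 0 without control 2 in edgeR, where mt-Nd2 had an adjusted p of 0.052, and the 4 calls were lost as well when all 13 libraries were fitted together (adjusted p 0.052 to 0.15). There were 1 each without control 1 and control 3, and 2 each without RaptorKO 1 and RaptorKO 2. The nuclear genes of the respiratory chain had 5 of 76 members higher (6.58%, against 4.49% of all genes) and 0 lower, with a median of 0.11. Cox7a2l, a factor of supercomplex assembly, rose from 144 ± 5.67 to 268 ± 11.8 CPM (0.90, SE 0.07, adjusted p = 7.69e-05, edgeR), more than any other of these. The count was 3, 1 and 3 without control 1, 2 and 3, 2 each without RaptorKO 1 and RaptorKO 2, and 8 without RaptorKO 4. In glycolysis and lactate metabolism, 4 of 24 genes were lower (16.7%, against 5.68% of all genes) and 1 higher (4.17%, against 4.49%). Pdk4 and Pdk2, the kinases that switch off pyruvate dehydrogenase, fell by 0.87 and 0.59, and Ldhb, the lactate dehydrogenase subunit favoured in oxidative tissue, by 0.63, whereas Gpi1 rose by 0.48. Without control 2 there were 2 lower genes, and Pdk2 was not called without control 1 or control 2 (adjusted p = 0.065 and 0.064).

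Lysosome and autophagy genes, which are held down by mTORC1 through TFEB in many cells, were not raised as a group. Of 44 lysosomal genes, 3 were lower and 1 was higher (median 0.00), among them Lamp1 (-0.39, from 996 ± 12 to 758 ± 17.7 CPM) and Scarb2 (-0.41), both membrane proteins of the lysosome. Tfeb (0.17, adjusted p = 0.50) and Tfe3 (-0.24, adjusted p = 0.22) were not called, and their relative Mitf was lower (-0.54), a call lost without any one control or RaptorKO 1 (adjusted p 0.066 to 0.089). Of 36 autophagy genes, 3 were lower, including Wipi1 (-0.54) and Bnip3l, a receptor for mitophagy (-0.45), and Gabarap was higher (0.34, lost without any one control, adjusted p 0.066 to 0.11). There were 5 lower autophagy genes without RaptorKO 2 or RaptorKO 4. In the insulin and PI3K pathway upstream of mTORC1, 2 of 24 genes were lower, Pik3r1, the regulatory subunit of PI3K (-0.49, from 629.6 ± 43.4 to 449 ± 6.38 CPM), and Foxo4 (-0.64). Igf1 was higher (0.83, adjusted p = 0.050), a call that was lost without any one library except RaptorKO 2 (adjusted p 0.051 to 0.16). Targets of ATF4, a transcription factor that mTORC1 can induce, had 1 lower and 1 higher gene of 20 (Slc7a5 and Atf5, which overlaps Nup62 on the other strand), and Atf5 was lost without any one library except RaptorKO 1 (adjusted p 0.050 to 0.12). In the lysosome, autophagy, insulin and ATF4 lists 5% to 8.33% of genes were lower and 2.27% to 5% higher. These shares of called genes lay near the 5.68% and 4.49% of all tested genes. The autophagy genes leaned lower, with a median of -0.14 and 26 of 36 below 0. In 12 of the 36 every RaptorKO library was below every control, and in 3 every one was above. Over all genes these shares were 12.4% and 11.1%.

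Cell cycle genes were at low levels, and 28 of 50 passed the count filter. Of these 5 were higher and 1 lower, with a median of 0.18. Mki67, the proliferation marker Ki-67, had 2.85, 5.65 and 5.09 CPM in controls against 12.7, 13, 12.1 and 18.2 CPM in RaptorKOs, a log2 ratio of 1.62 (SE 0.26, adjusted p = 0.0034, edgeR). RaptorKO 4 was the highest, and the lowest RaptorKO was above every control. Ccnd1, cyclin D1, had 95.8, 85.7 and 97.7 CPM in controls against 133, 147, 135 and 146 CPM in RaptorKOs (0.59). It overlaps LTO1 on the other strand. Cdk6 (0.71), Cdk4 (0.43) and Mcm7 (0.59) were higher and Cdkn1b, the inhibitor p27, was lower (-0.42). Top2a, Cdk1, Ccnb1 and the other mitotic genes of the list did not reach 50 counts in 2 libraries. Without control 2 or control 3 there were 2 higher genes, and Cdk6, Cdk4 and Mcm7 lost their calls without either (adjusted p 0.069 to 0.13), Cdk4 also without RaptorKO 1 and Mcm7 without RaptorKO 2 or 4. Cdkn1b lost its call without control 2 (adjusted p = 0.085).

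Many markers of macrophages and some of fibroblasts were higher. Of 16 tested macrophage markers, 12 were higher and 0 lower, with a median of 0.89, and their summed level was 258 to 279 CPM in controls and 436 to 528 CPM in RaptorKOs. C1qb, a complement component, had 23.4, 22.2 and 24.4 CPM in controls against 44.4, 42.0, 43.9 and 43.0 CPM in RaptorKOs (0.89, SE 0.10, adjusted p = 2.71e-04, edgeR). The 2 groups were tight and far apart. Lyz2, lysozyme, rose by 0.89, Csf1r, the growth factor receptor of macrophages, by 0.94, and Cd163, Mrc1 and Lyve1, which mark resident macrophages beside vessels, by 1.12, 0.78 and 1.79. The call of Mrc1 was lost without any one library except RaptorKO 2 (adjusted p 0.054 to 0.14). Adgre1 (0.52, adjusted p = 0.22) and Cd68 (0.55, adjusted p = 0.34) were not called, and Ccr2, Cx3cr1, Aif1 and Ms4a7 did not pass the count filter. The number of higher markers was 8 to 12 when any one library was left out. Of the lymphocyte markers 0 passed the filter.

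Fibroblast and perineurial markers had 6 of 15 genes higher and 0 lower, with a median of 0.76, and their sum was 3769 to 4655 CPM in controls and 5762 to 8747 CPM in RaptorKOs. Pdgfra, a receptor that marks fibroblasts, had 121, 139.5 and 127 CPM in controls against 222, 199.6, 277 and 230.5 CPM in RaptorKOs (0.85, SE 0.11, adjusted p = 0.0011, edgeR). The proteoglycans Dcn (0.85) and Lum (0.84) and the glypican Gpc3 (0.90) were higher too. In each of these genes RaptorKO 3 was the highest library and RaptorKO 2 the lowest of the RaptorKOs. RaptorKO 3 also had the highest summed adipocyte markers, at 635 CPM against 98.4 to 143 CPM in the other RaptorKOs. Whether the epineurium was removed equally from all nerves was not tested. Perineurial genes such as Cldn1 (0.51, adjusted p = 0.54) and Moxd1 (0.54, adjusted p = 0.36) were not called. Of the 12 pericyte and vascular smooth muscle markers, 3 were higher, of which the proteoglycan Cspg4 rose by 0.56. There was 1 such gene without control 1, control 3 or RaptorKO 1, and 6 without RaptorKO 4. Endothelial markers had 0 of 19 genes called in edgeR, 1 in DESeq2 and 1 at an unadjusted p below 0.05, with a median of 0.02. The mast cell proteases Tpsb2 (2.43) and Mcpt4 (2.10) were higher, with control 2 well above the other controls (11.8 and 17.8 CPM against at most 1.48 and 3.28). Both belong to families of near copies, and both were lost without any one library except control 2 and RaptorKO 3 (adjusted p 0.056 to 0.16) and in DESeq2 (adjusted p = 0.058 and 0.061). Of 4 haemoglobin and red cell genes 2 were higher, Hbb-bs (0.87) and Hba-a2 (0.91), which has a near copy, and both were lost without control 1 or control 2 (adjusted p 0.13 to 0.19), Hba-a2 also without RaptorKO 2, 3 or 4 and in DESeq2 (adjusted p = 0.054). The part that these other cells have in the genes that rose was not tested, and a larger share of their RNA and a smaller share of SC RNA cannot be told apart from regulation within cells.

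Some genes of the extracellular matrix were higher too. Of 29 laminin, nidogen and integrin genes, 9 were higher and 1 was lower, with a median of 0.30. Lama2, the laminin chain of the SC basal lamina, had 285, 296 and 264 CPM in controls against 504, 463, 479 and 554 CPM in RaptorKOs (0.83, SE 0.09, adjusted p = 2.18e-04, edgeR). No RaptorKO library fell in the range of the controls. Its partner chain Lamc1 rose by 0.44, Lama4 by 0.56 and the linker Nid1 by 0.54. The main laminin receptor Itgb1 (0.05) and the myelin integrin Itgb4 (0.03) were not called. Without control 2 there were 5 higher genes. Of 26 collagens, 8 were higher and 0 lower, with a median of 0.41. Col12a1 had 128, 130.2 and 128 CPM in controls against 233, 259, 249 and 227 CPM in RaptorKOs (0.91, SE 0.08, adjusted p = 7.69e-05, edgeR). Col15a1, a collagen of basement membranes, rose by 0.91 and Col18a1 by 0.47. Col1a1 (0.41, adjusted p = 0.11) and Col4a1 (0.25, adjusted p = 0.13) were not called. The number was 4, 3 and 3 without control 1, 2 and 3, 3 without RaptorKO 1 and 5 without RaptorKO 3.

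**Figure D4:**
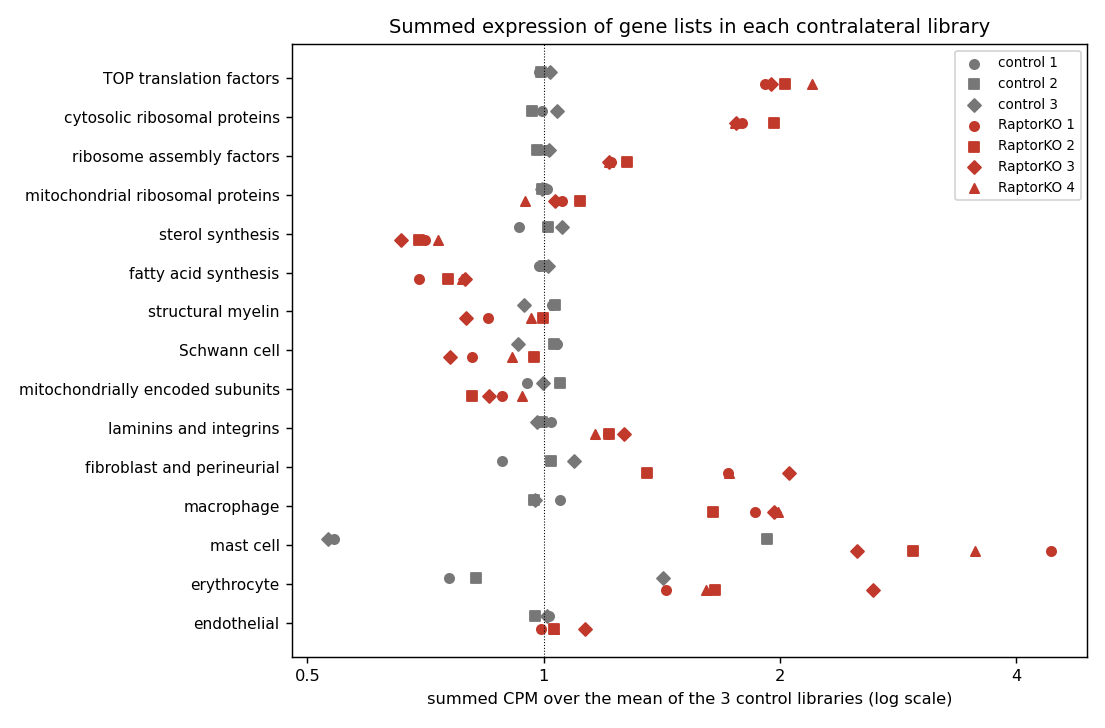
Summed CPM of 15 gene lists in each library, divided by the mean of the 3 controls (log axis); grey symbols are controls, red symbols RaptorKOs, and the shape gives the replicate number. The RaptorKO sums of TOP factors, ribosomal proteins, fibroblast and macrophage markers lie to the right of all controls, those of sterol and fatty acid synthesis to the left, and those of endothelial markers overlap the controls.

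Of 30 transcripts that can come from axons, 12 passed the count filter, and which cells they came from was not tested. Of these 12, 4 were higher (33.3%, against 4.49% of all genes) and 1 was lower (8.33%, against 5.68%). Nefh, the heavy neurofilament chain, had 2.33, 4.03 and 3.05 CPM in controls against 14.3, 13.3, 11.5 and 8.37 CPM in RaptorKOs (1.92, SE 0.27, adjusted p = 0.0015, edgeR). The lowest of the RaptorKOs was well above the highest control. Nefl (0.85), which overlaps Nefm on the other strand, Mapt (0.58) and the noradrenaline transporter Slc6a2 (1.82) were higher, and Uchl1, a ubiquitin hydrolase that SCs also express, was lower (-0.70). There was 1 higher gene without control 1 and there were 2 without control 2 or RaptorKO 2, and Nefl, Mapt and Slc6a2 lost their calls without control 1 (adjusted p = 0.10, 0.14 and 0.053), Nefl and Mapt also without control 2 or RaptorKO 2 and Mapt without control 3. In antigen presentation, H2-DMb1, a chain of the peptide exchange factor of MHC class II, fell from 138, 137 and 133 CPM to 49.9, 53.1, 31.8 and 31.2 CPM (-1.71, SE 0.18, adjusted p = 2.18e-04, edgeR). RaptorKO 3 and 4 were lower than RaptorKO 1 and 2, and all were below the controls. Reads of this gene could be shared with its near copy H2-DMb2. Its partner chain H2-DMa was not called (0.14, adjusted p = 0.47), and Cd74, the class II invariant chain, was higher (0.68), a call lost without any one control or RaptorKO 1 (adjusted p 0.058 to 0.11). Of 31 genes of the NRF2 and glutathione list 4 were lower (12.9%, against 5.68% of all genes) and 1 higher (3.23%, against 4.49%). Without control 1 or control 2, 0 of the lower ones were left, and without RaptorKO 1 there were 2. Of 23 interferon response genes 2 were lower (8.7%, against 5.68% of all genes), Ifit2 (-0.52) and Xaf1 (-0.47), both lost without any one control (adjusted p 0.057 to 0.093).

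The effect of the genotype was then set against that in the injured nerves by an interaction term between genotype and injury in all 13 libraries, which was called for 318 of 12851 genes (2.47%). With the mouse number within genotype as a block, in the 12 libraries with a partner, it was 352, of which 251 were shared. The number fell when single libraries of either side were left out. Without contralateral control 1, 2 or 3 it was 167, 132 and 170, without contralateral RaptorKO 1 it was 179, without injured control 1 or 2 it was 206 and 169, and without injured RaptorKO 1 it was 203. Of the 1208 genes called in contralateral nerves, 122 (10.1%) had such an interaction, and the remaining ones were not shown to differ between the 2 sides. Of the 141 genes that the rule for naming selected, 19 had an interaction. Both sets were chosen mainly on contralateral values, which also enter the interaction term. A share above the 2.47% of all genes, and weaker ratios in injured nerves, can therefore arise in part from that choice. Slc43a2 was lower in contralateral RaptorKO nerves by 2.06, but had a log2 ratio of -0.34 in injured ones (interaction adjusted p = 0.0011, edgeR). Fbln5 (-0.98 and 0.38, adjusted p = 1.7e-04), Dkk3 (-1.57 and -0.32, adjusted p = 0.0099), Cdh2 (-1.37 and -0.48, adjusted p = 0.018) and H2-DMb1 (-1.71 and 0.30, adjusted p = 0.0025) also had the lower ratio on the uninjured side. Ngfr had a ratio of 0.81 on the uninjured side and -0.12 on the injured side (adjusted p = 0.0086), Ccnd1 0.59 and -0.08 (adjusted p = 0.022), and Mki67 1.62 and -0.82 (adjusted p = 1.7e-04). Mki67 and Col18a1 (0.47 and -0.62, adjusted p = 0.0025) were thus higher on one side and lower on the other. Eef1a1 (1.29 and 0.75, adjusted p = 0.026), Eif4b (1.01 and 0.48, adjusted p = 0.036, and 0.07 with the block) and Eif3h (0.86 and 0.33, adjusted p = 0.016) had larger ratios in contralateral nerves. Of the 82 ribosomal protein genes and the 20 sterol synthesis genes 0 had a called interaction, with the smallest adjusted p at 0.056 and 0.071 (edgeR), which does not show that their ratios were equal on both sides. With the block Rpl11 alone among them had one (adjusted p = 0.049, edgeR). Of the 24 node genes 7 had one, which include Kcna2 (-0.53 and -1.84) and Adam23 (-0.38 and -1.40), with the lower ratio in injured nerves, and Cadm3 (-0.39 and 0.49), with the lower ratio in contralateral nerves.

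**Figure D5:**
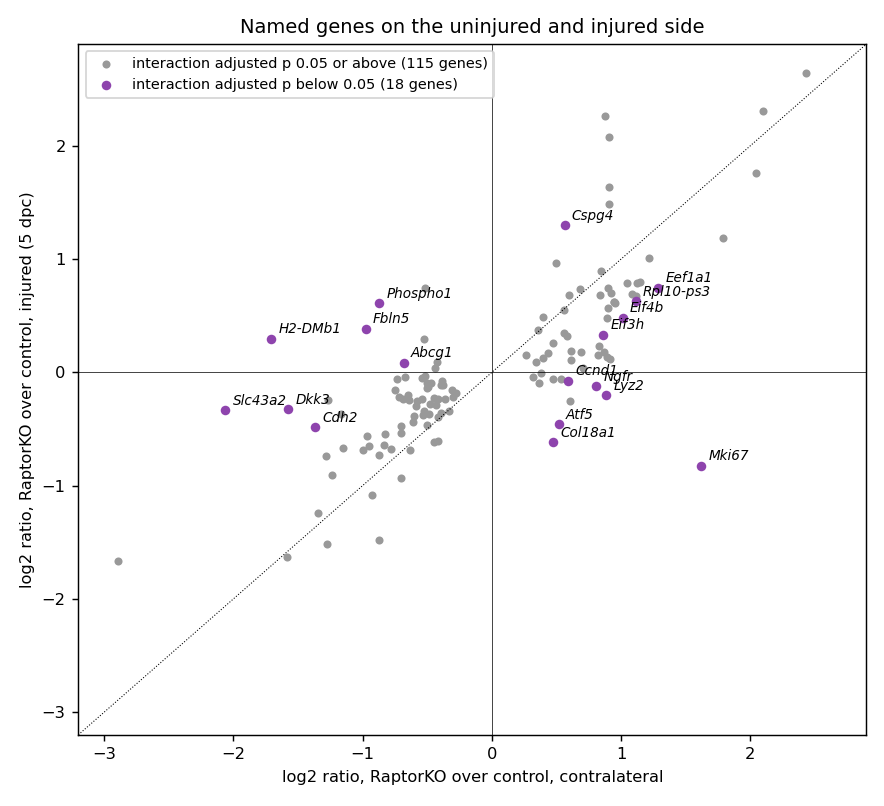
Log2 ratio of RaptorKO over control in contralateral nerves (horizontal) and in injured nerves at 5 dpc (vertical) for the 133 named genes that were tested on both sides. Purple points are the 18 genes with an interaction at an adjusted p below 0.05, grey points the other 115, and the dotted line marks equal ratios; genes with an interaction lie away from the line, such as Mki67 below it and H2-DMb1 and Slc43a2 above it.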

How the data were processed

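Stranded mRNA libraries from whole nerves were sequenced as single reads. The authors trimmed reads with Trimmomatic and estimated expected counts per gene with RSEM 1.2.22 on GRCm38, and these deposited expected counts, which need not be whole, were rounded before testing. Whether the counting used strand is not given in the sources used here, so genes that overlap another on the opposite strand are pointed out. Contralateral libraries held 8200458 to 13581775 counts. Genes with at least 50 counts in at least 2 of the 7 contralateral libraries were tested with the quasi-likelihood test of edgeR 4.0.16 (R 4.3.3, TMM factors, all p two-sided) and adjusted by Benjamini-Hochberg over all 11878 of them. The interaction used all 13 libraries. On simulated counts for these genes the test recovered 36 of 100 genes changed 1.5-fold and 81 of 100 changed 2-fold, with 11 false calls. Only these genes were changed in the simulation, fewer than the 1208 called in the data. The adjusted p is stricter when fewer genes change, so recovery in the data may be higher. Equal replicate numbers were not stated to mark the same animal or day. Injured and contralateral libraries of one number and genotype may come from 1 mouse. The paper speaks of the contralateral nerves as those that correspond to the injured ones, and in both sides control 3 alone stood apart in Xist. Deviations of such pairs correlated at -0.0239 to 0.3048 (6 pairs), and those of unlike numbers within a genotype at -0.2978 to 0.1369. These correlations do not settle the pairing. The main interaction fit had no such block, so it treated the sides of a mouse as independent. Values with the block are given for named genes that lost their call under it.

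Named genes were the 10 with the smallest p and the 5 with the largest log2 ratio in each direction (called, libraries of the groups not overlapping, mean of at least 5 CPM in the higher group), up to 4 called members of each list with the smallest p, and Rptor. Further called members that complete a list were chosen after their values were seen, and members that were not called were named where they define a pathway or cell type. A few list members count in the list totals but are not reported here by name. The comparison and the lists were chosen with earlier results of these data known. Alternatives were other normalizations (DESeq2 size factors, library totals, TMM without ribosomal protein genes), DESeq2 1.42.0, the exact test of edgeR, other filters, all 13 libraries in one fit, the replicate number as a block, an adjusted p of 0.01 and leaving out each library.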

Additional observations from a re-analysis of the deposited data

Results flagged for a closer look

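For 19 of the 141 named genes the interaction of genotype and injury was called, so that the ratio of RaptorKO over control differed between contralateral and injured nerves (adjusted p from the quasi-likelihood test of edgeR). Rptor aside, these genes were named for their contralateral values, which also enter the interaction. Their share is therefore not comparable with that of all genes. Genes with a lower ratio in contralateral nerves were Slc43a2 (adjusted p = 0.0011), Serpind1 (0.022), Dkk3 (0.0099), Fbln5 (0.00017), Cdh2 (0.018), H2-DMb1 (0.0025), the cholesterol exporter Abcg1 (0.026, and 0.054 with the mouse number as a block, with log2 ratios of -0.68 and 0.08), the phosphatase Phospho1, which neighbours Zfp652 on the same strand (0.013, with -0.87 and 0.61), and Cspg4 (0.019, with 0.56 and 1.30). Serpind1 had at most 5.38 CPM in injured nerves, and its ratio there was not fitted. Genes with a higher ratio in contralateral nerves were Mki67 (0.00017), Col18a1 (0.0025), Ngfr (0.0086), Ccnd1 (0.022), Eif3h (0.016), Eef1a1 (0.026), Eif4b (0.036, and 0.07 with the block), Atf5 (0.01, with 0.52 and -0.46), Lyz2 (0.049, with 0.89 and -0.20) and Rpl10-ps3 (0.049, and 0.072 with the block, with 1.12 and 0.63).

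A single RaptorKO library stood far from the other 3 in 12 of 185 groups of values tested (Dixon's ratio of the gap to the range, above its 95% critical value), where chance gives about 1 in 20. RaptorKO 4 was high in Eef1a1 (ratio 0.88) and Mki67 (0.853) and low in the summed collagens (0.866, 8426 against 10778 to 11142 CPM). RaptorKO 2 was high in Rack1 (0.844), Col18a1 (0.831), the summed ribosomal proteins (0.846, 31392 against 27999 to 28521 CPM) and the summed ribosome assembly factors (0.861). RaptorKO 1 was low in Mrpl30 (0.846) and high in Zfp36 (0.847). RaptorKO 3 was low in S100b (0.857), high in Acss2 (0.895) and high in the summed adipocyte markers (0.917, 635 against 98.4 to 143 CPM).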

How the results depend on the processing

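Rptor, the 12 sterol synthesis genes and the 76 ribosomal protein genes stayed on their side of the threshold or within 1.5 times their count under every alternative run, and 0 counts or named genes changed direction. When each library was left out in turn, 278 to 820 genes were lower, 246 to 598 higher, 8 to 12 sterol synthesis genes lower and 70 to 76 ribosomal protein genes higher. The log2 ratio of Rptor was -1.07 to -0.95, and the interaction was called for 132 to 284 genes. At an adjusted p of 0.01, 259 genes were lower and 218 higher. Scaling by library totals gave 552 lower and 619 higher genes and moved the median of all genes to 0.05, whereas DESeq2 gave 870 and 720, and the exact test of edgeR 702 and 576. Among the lists, DESeq2 called more lower genes of structural myelin (7 against 3), lysosome (5 against 3) and autophagy (6 against 3), and with all 13 libraries in one fit 3 in place of 8 collagens, 2 in place of 4 axonal genes and 0 of the mast cell and red cell genes were higher. Without a count filter 6 structural myelin genes were lower. Under the other scalings the list medians kept their sign, except for some near 0. Those were of the lysosomal genes and, with library totals, SC transcription factors and cofactors (-0.01 to 0.03), glycolysis (-0.02 to 0.02) and zinc transport (-0.04 to 0.00). Of the 141 named genes 87 were called under every alternative, and 53 lost their call without at least 1 library.

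With the replicate number as a block, 931 genes were lower and 880 higher, of which 624 and 494 were shared with the test without it, and the interaction, with the mouse number within genotype as the block, was called for 352 genes. Of the 19 named genes with an interaction 16 kept it and 3 lost it under that block, and 7 others gained one. The block gave 8 lower structural myelin genes in place of 3, and 13 in place of 8 collagens, 11 in place of 6 fibroblast markers and 9 in place of 5 cell cycle genes that were higher. Deviations of libraries with equal numbers correlated at 0.0928, 0.3027 and 0.3532 for numbers 1, 2 and 3. Unlike numbers correlated as much in some cases, control 1 with RaptorKO 3 (0.0939), control 2 with RaptorKO 4 (0.3496) and control 3 with RaptorKO 1 (0.1627), and no source ties controls to RaptorKOs by number, so the number was not taken as a pairing of the genotypes. With 8200458 to 13581775 counts per library, and 3 against 4 libraries, differences below 1.5-fold may often have been missed, although 601 called genes differed by less than that.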

Other observations

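Of the 4 lower genes of the NRF2 and glutathione list, which holds genes of the antioxidant response, 3 were Hmox1, haem oxygenase (-0.67, from 108 ± 20.5 to 67.7 ± 11.1 CPM), Mgst3, a glutathione transferase of membranes (-0.52), and Sod3, the extracellular superoxide dismutase (-0.43), and each of these calls was lost without control 1 or control 2 (adjusted p 0.066 to 0.10, edgeR). Taldo1, transaldolase of the pentose phosphate pathway, was lower (-0.48) and lost its call without control 2 or control 3 (adjusted p = 0.053 and 0.078). Of 21 immediate early genes, which respond to stress during dissection, Zfp36 alone was called (0.36, adjusted p = 0.042, edgeR). This was 4.76% of the list, against 4.49% of all genes higher. Its call was lost without any one library except RaptorKO 3 and 4 (adjusted p 0.052 to 0.15, edgeR). Of 9 adipocyte markers 0 were called in edgeR, 0 in DESeq2 and 0 had an unadjusted p below 0.05, while their summed level was 74.2 to 202 CPM in controls and 98.4 to 635 CPM in RaptorKOs.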
